A study of Mus musculus with 4 samples.

Results

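The genes described here are 9 of the 31053 in the deposited tables: somatostatin (Sst) and its receptors Sstr1, Sstr2, Sstr3 and Sstr4, growth hormone-releasing hormone (Ghrh), the growth hormone receptor Ghr, galanin (Gal) and the galanin receptor Galr1. They are taken by name as a signalling group, and the group was picked with earlier results of these data known. Transcripts were counted in single nuclei from tissue punched out of the arcuate nucleus (ARC) in the mediobasal hypothalamus of wildtype male C57BL/6J mice, 10 weeks old. DOCA-salt mice carried a deoxycorticosterone acetate pellet and drank saline, a model of hypertension, for 3 weeks, and Sham mice had the surgery alone. There were 2 DOCA-salt and 2 Sham libraries, and each library pooled the nuclei of a pair of mice, so that spread between libraries is spread between pools.

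Somatostatin and growth hormone-releasing hormone are the hypothalamic peptides that restrain and drive growth hormone release from the pituitary, and growth hormone acts back on the hypothalamus through Ghr, a cytokine-type receptor that signals through JAK2 and STAT5. Somatostatin receptors couple to inhibitory G proteins. Galanin is a peptide made by several kinds of hypothalamic neuron, growth hormone-releasing hormone neurons among them, and Galr1 is an inhibitory receptor for it.

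Of 41649 deposited barcodes, 39176 nuclei were kept, between 2203 in Sham 1 and 18907 in DOCA-salt 2. Sham 1 was the deepest library, with a median of 8215 UMIs (unique transcript molecules) per nucleus against 2401 to 3278 in the others. Any pair of libraries shared between 5 and 49 barcodes, at most 0.565% of the smaller one. Nuclei were assigned to classes by marker genes, and 23209 nuclei passed as neurons. The neurons sampled differed between libraries: DOCA-salt 2 held 2 Agrp-gated nuclei where DOCA-salt 1, Sham 1 and Sham 2 held 242, 33 and 132, and it held 401 Oxt/Avp-gated and 82 Hcrt-gated nuclei where DOCA-salt 1 held 10 and 0. The part of these differences in the results below was not tested. Levels are given as CPM, the UMIs of a gene per 1000000 UMIs of the class in that library, and since the counts come from the 3′ end of transcripts and are not scaled to length they are compared between classes and libraries, never between genes. Where 4 values stand in a row they belong to DOCA-salt 1, DOCA-salt 2, Sham 1 and Sham 2, in that order, and 3 values skip a library with under 10 nuclei of the class.

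The promoters of the 3 peptide genes are shown because these genes mark the neurons on which most results turn. Sst lies on chromosome 16 (23889573 to 23890958), Ghrh on chromosome 2 (157329497 to 157347506) and Gal on chromosome 19 (3409915 to 3414544), all on the minus strand of GRCm38. Each line gives the 100 bases before the RefSeq transcription start (build GRCm38.p6), 5′ to 3′, with matches to TGACGTCA (the cyclic AMP response element) or TATAAA in capitals. For Ghrh the second of its 2 listed starts is shown, picked after both were read because it holds a match.
Sst chr16:23890845-23890944: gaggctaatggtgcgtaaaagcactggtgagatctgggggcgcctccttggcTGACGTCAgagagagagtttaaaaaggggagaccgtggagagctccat
Ghrh chr2:157337427-157337526: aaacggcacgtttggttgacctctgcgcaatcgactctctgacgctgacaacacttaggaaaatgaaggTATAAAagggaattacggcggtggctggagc
Gal chr19:3414545-3414644: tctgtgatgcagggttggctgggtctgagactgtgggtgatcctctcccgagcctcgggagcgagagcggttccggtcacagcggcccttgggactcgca
TGACGTCA, searched on both strands, was found in 1.15% and TATAAA in 5.56% of 32851 promoter windows of this length. Gal held neither motif in this window.

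Sst was detected in all libraries, with 49195 UMIs over the kept nuclei. Its level in neurons was 396, 299.6, 204 and 307 CPM. DOCA-salt 1 was highest and Sham 1 lowest, and the groups overlapped. The DOCA-salt over Sham difference was 0.41 ± 0.25 (log2 fold change ± SE) and did not pass edgeR's quasi-likelihood test with Benjamini-Hochberg adjustment (adjusted p = 0.685).

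Across classes of neuron, Sst was higher in GABAergic-gated and lower in glutamatergic-gated neurons. GABAergic-gated neurons, with at least 2 UMIs of Slc32a1, Gad1 and Gad2 together and none of the glutamate transporter gene Slc17a6, had 603, 370.3, 316 and 484 CPM, against 278, 248, 178 and 226 in all other neurons. Glutamatergic-gated neurons, with at least 2 UMIs of Slc17a6 and none of the others, had 55.0, 93.4, 128 and 66.9 CPM. Both directions held in 4 of 4 libraries. The difference from the other neurons was 0.90 ± 0.07 for GABAergic-gated neurons (adjusted p = 1.39e-05, edgeR's quasi-likelihood test with library as a block). For glutamatergic-gated neurons it was -2.16 ± 0.15 (adjusted p = 4.85e-10, same test). Oligodendrocyte-gated nuclei had 175, 209.5, 137 and 132 CPM, above the glutamatergic-gated neurons in each library. The part of free RNA in such low levels was not tested.

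Sst was also higher in Agrp-gated neurons, the hunger-promoting neurons named for agouti-related peptide. The 3 libraries with at least 10 such nuclei had 718, 526 and 623 CPM, against 385, 194 and 295 in the other neurons. The difference was 1.09 ± 0.08 (adjusted p = 9.63e-24, edgeR) and was seen in 3 of 3 libraries. Of the Agrp-gated nuclei 9.92%, 9.09% and 16.7% also passed the Sst gate, which makes up 7.14%, 13.0% and 12.4% of the Sst-gated neurons. Sst was lower in neurons gated on Pomc (pro-opiomelanocortin, a satiety peptide precursor), with a difference of -1.02 ± 0.12 (adjusted p = 1.14e-14), and in those gated on Tac2 (neurokinin B), with a difference of -0.92 ± 0.11 (adjusted p = 1.68e-04), each in 4 of 4 libraries by edgeR. The log2 ratios of the 4 libraries had SDs of 1.22 for Pomc-gated and 0.42 for Tac2-gated neurons. Mean Sst levels in these 2 classes, 131 and 168 CPM, were near the 164 CPM of oligodendrocyte-gated nuclei.

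Neurons that themselves passed the Sst gate, 3 or more Sst UMIs at 10 or more times the level in oligodendrocytes, numbered 336, 293, 23 and 178. They were 5.53%, 2.49%, 1.80% and 4.33% of neurons. The means were 4.01% with DOCA-salt and 3.07% in Sham, and an exact two-sided permutation test gave p = 0.667, where 2 against 2 libraries cannot go below 0.333. The difference was -0.574 percentage points without DOCA-salt 1 and 2.47 without DOCA-salt 2. The gate counts UMIs, and the median depth of neurons was 3136.5, 3074, 10658 and 5142 UMIs. The part of depth in these and the later gated shares was not tested. Just outside the gate, at 5 to 10 times the oligodendrocyte level, lay 122, 157, 32 and 76 neurons, and just inside it, at 10 to 15 times, lay 82, 73, 8 and 49. Of Sst-gated neurons 57.4%, 56.3%, 43.5% and 53.4% were GABAergic-gated, against 38.5%, 47.4%, 23.2% and 38.6% of all neurons. At most 1.71% of Sst-gated neurons were glutamatergic-gated, against 8.89%, 5.81%, 1.96% and 5.70% of all neurons.

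**Figure D1:**
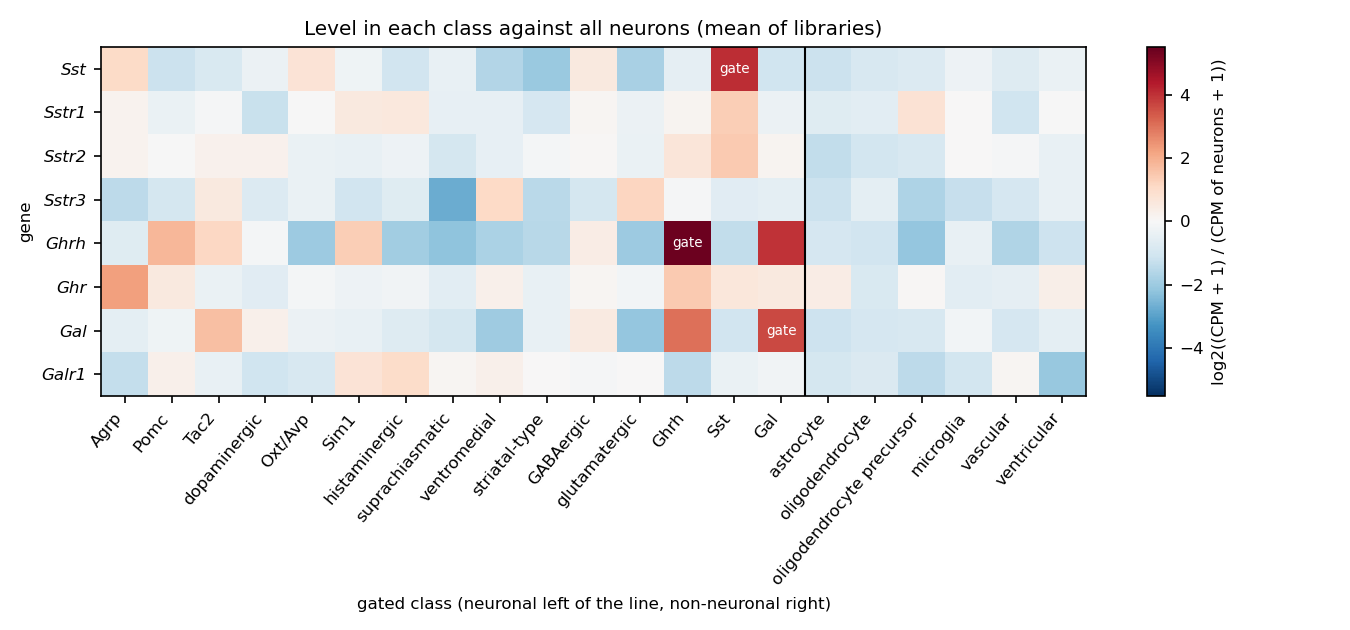
Level of 8 genes (Sstr4 is left out for its 22 UMIs) in each gated class against all neurons, as log2 of the ratio of mean CPM + 1 over libraries with at least 10 nuclei. Red is higher and blue lower than in neurons, "gate" marks a gene that chose its own class, and Gal in Ghrh-gated, Ghrh in Gal-gated and Ghr in Agrp-gated neurons stand out in red while Sst, Gal and Ghrh are blue in glutamatergic-gated neurons.

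Among the 7 genes tested in Sst-gated neurons other than Sst itself, 5 passed, against 3.06% of all 13838 genes tested. The inhibitory receptors Sstr1 and Sstr2 rose there. Sstr2 had 42.2, 22.7, 30.0 and 38.6 CPM in Sst-gated neurons and 13.5, 9.32, 9.24 and 10.6 CPM in the other neurons. It was higher in 4 of 4 libraries, with a difference of 1.62 ± 0.16 (adjusted p = 2.155e-10, edgeR).

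Sstr1 had 38.9, 4.00, 30.0 and 66.4 CPM in Sst-gated neurons and 12.04, 4.10, 15.7 and 16.6 CPM in the other neurons of the same libraries. It was higher in 3 of 4 libraries and level in DOCA-salt 2, where Sstr1 reached no more than 8.503 CPM in the neuronal classes with at least 10 nuclei other than the histaminergic-gated one (15.8 CPM). The difference was 1.59 ± 0.18 (adjusted p = 1.21e-08, edgeR), and without library as a block the adjusted p was 1. Sstr1 UMIs were found in 14.0%, 2.05%, 21.7% and 34.3% of Sst-gated nuclei, and thinned to 1000 UMIs per nucleus in 2.49%, 1.40%, 4.35% and 9.55%. In oligodendrocyte-gated nuclei, which should lack neuronal receptors, the thinned share was 0%, 0%, 2.20% and 1.01%. Thinned shares, here and below, leave out nuclei with fewer UMIs than were drawn. Median depth before thinning was 3358.5 to 10359 UMIs in the Sst-gated and 945 to 5292 in the oligodendrocyte-gated nuclei. The zeros were 0 of 114 and 0 of 388 nuclei, which allow shares of up to 2.63% and 0.773%, counting error only.

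Ghr rose in the Sst-gated neurons too, by 0.75 ± 0.10 on the log2 scale (adjusted p = 1.22e-06, edgeR), in 4 of 4 libraries. Of these neurons 7.14%, 0.341%, 13.0% and 12.4% were also Agrp-gated, the class with the highest mean Ghr. The part of such nuclei in the Ghr difference was not tested. Ghrh and Gal were lower in Sst-gated neurons, with differences of -1.32 ± 0.14 and -0.90 ± 0.11, each in 4 of 4 libraries. Their mean levels there, 18.3 and 46.3 CPM, were under the 22.6 and 51.2 CPM of oligodendrocyte-gated nuclei. Ghr, Ghrh and Gal were each called in 9 of 10 alternative fits and, as with Sstr1, not without library as a block. The Sst gate was passed by 7 of 122, 0 of 34, 0 of 12 and 1 of 57 Ghrh-gated nuclei. Of all neurons 5.53%, 2.49%, 1.80% and 4.33% passed it. The share of Ghrh-gated nuclei was 5.74% in DOCA-salt 1, near that of all neurons, and 1.75% in Sham 2. The zeros allow shares of up to 8.82% and 25%, above those of all neurons.

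In neurons as a whole, Sstr1 showed the lowest DOCA-salt to Sham ratio of the 8 genes tested. It was at 13.6, 4.09, 15.9 and 19.3 CPM. Both DOCA-salt libraries lay below both Sham libraries, and DOCA-salt 2 lay well below DOCA-salt 1. The difference was -1.06 ± 0.50 and did not pass (adjusted p = 0.653, edgeR), and 0.0% of 15774 genes passed in neurons. Without DOCA-salt 1 the difference was -2.10, and without DOCA-salt 2 it was -0.45. Each of these fits holds 1 DOCA-salt library and no spread between pools of that group. Without the filter on low counts it was -1.05 and passed, as did many other genes, counted in the closing section. In oligodendrocyte-gated nuclei Sstr1 had 5.23, 0.884, 14.3 and 13.8 CPM, from 2, 1, 8 and 16 UMIs, with a difference of -2.73 ± 0.82 (adjusted p = 0.287, edgeR; 0.164% of genes passed there).

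Sstr2 in neurons was at 15.2, 9.71, 9.63 and 12.1 CPM, and Sstr3 at 12.5, 11.5, 9.35 and 10.0 CPM. For Sstr2 the groups overlapped, and for Sstr3 both DOCA-salt libraries were above both Sham libraries. Their differences were 0.15 ± 0.27 (adjusted p = 0.883) and 0.27 ± 0.20 (adjusted p = 0.716, edgeR).

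**Figure D2:**
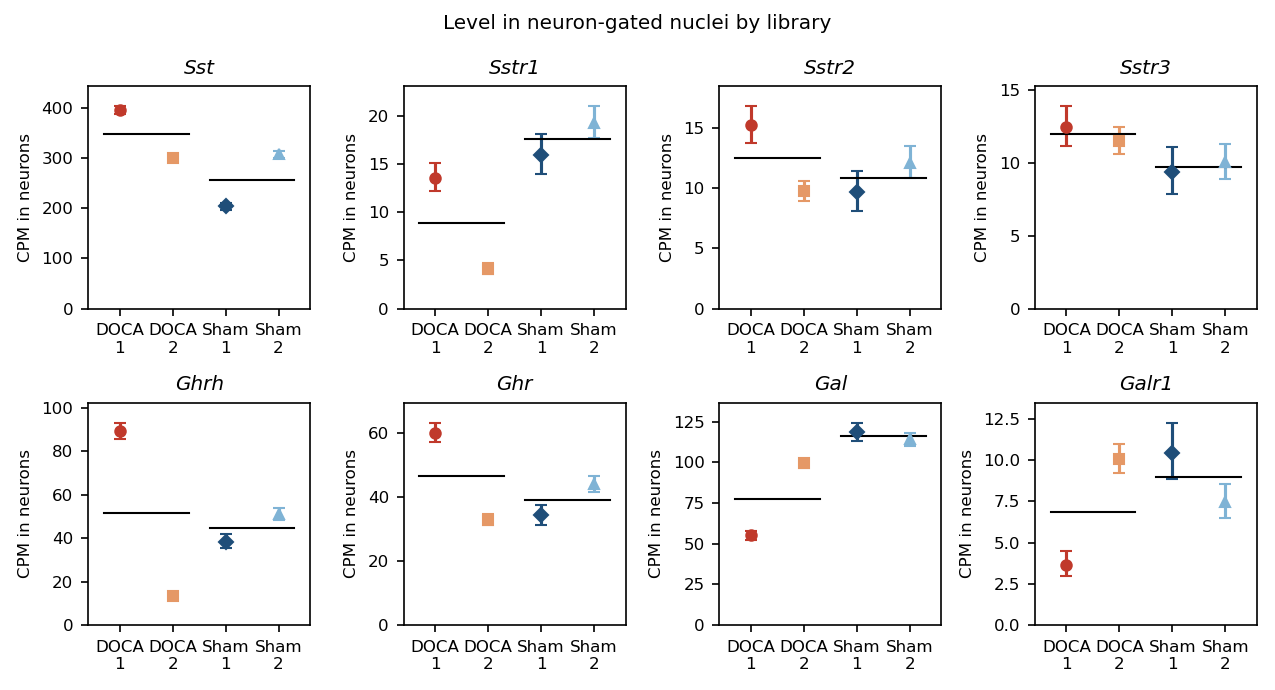
CPM of each gene in neuron-gated nuclei of the 4 libraries, with exact Poisson 95% intervals that cover counting error only and a black line at the mean of each group of 2. The 2 DOCA-salt libraries stand farther apart than the 2 Sham libraries do for each gene except Sst.

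Sstr3, the receptor known for its place in neuronal primary cilia, had a pattern of its own. Glutamatergic-gated neurons had 24.0, 23.8, 35.2 and 21.4 CPM against 11.2, 10.7, 8.94 and 9.35 in the other neurons, higher in 4 of 4 libraries by 1.22 ± 0.16 (adjusted p = 1.30e-05, edgeR). In GABAergic-gated neurons it had 3.84, 6.69, 4.51 and 4.88 CPM, lower in 4 of 4 libraries, with a difference of -1.46 ± 0.15 (adjusted p = 1.47e-04). Sst, the peptide, and Sstr3, the receptor, thus differed between these gates in opposite directions.

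The same held in neurons gated on ventromedial nucleus markers, a glutamatergic neighbour of the ARC, where 3 libraries had at least 10 nuclei. Sstr3 had 27.6, 24.97 and 19.8 CPM there, against 11.9, 11.0 and 9.48 in the other neurons. The differences were 1.18 ± 0.19 for Sstr3 (adjusted p = 4.83e-05) and -1.67 ± 0.14 for Sst (adjusted p = 1.30e-09, edgeR; 12.5% of all genes passed), each in 3 of 3 libraries. Nuclei can pass both the ventromedial and the glutamatergic gate, so these values are not independent of those above. Sstr3 was lower in Agrp-gated neurons (4.70, 2.43 and 3.01 CPM), with a difference of -1.66 ± 0.46 (adjusted p = 0.00622, edgeR). The counts behind these levels are small: the 25 glutamatergic-gated nuclei of Sham 1 held 8 Sstr3 UMIs.

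Sstr4 was at the limit of detection. It had 22 UMIs over all kept nuclei, 8, 3, 5 and 6. Neuron-gated nuclei held 8, 2, 4 and 6 of these. It did not pass the filter on low counts in any class and was not tested.

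Ghrh marked a small set of neurons. Neurons as a whole had 89.5, 13.5, 38.4 and 51.2 CPM. The 2 Sham libraries lay between the 2 DOCA-salt libraries, and the DOCA-salt over Sham difference was 0.13 ± 0.72 (adjusted p = 0.969, edgeR). Its sign depended on which DOCA-salt library was left out, at -1.73 without DOCA-salt 1 and 0.92 without DOCA-salt 2. Each of these fits holds 1 DOCA-salt library. Ghrh-gated neurons numbered 122, 34, 12 and 57, or 2.01%, 0.289%, 0.939% and 1.39% of neurons, and an exact two-sided permutation test of these shares gave p = 1. Leaving out DOCA-salt 1 gave a difference of -0.874 percentage points between the group means and leaving out DOCA-salt 2 gave 0.846.

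Gal was the member with the largest difference in Ghrh-gated neurons. It had 709, 388, 1260 and 858 CPM, against 33.6, 98.0, 106 and 98.4 in the other neurons. All 4 libraries were higher, by 21.1, 3.95, 11.9 and 8.72 times. The fitted difference was 3.35 ± 0.08 by edgeR, whose p was too small for the software to write, and 3.28 by DESeq2 (adjusted p = 1.56e-09). The log2 ratios of the 4 libraries had an SD of 1.01. The edgeR SE is that of a fitted difference and pools spread over genes, so it is not a measure of this spread. Of the 7 genes tested there other than Ghrh itself 3 passed, against 5.55% of all genes, namely Gal, Ghr and, lower, Sst (-0.47 ± 0.09). Sst was lower in 3 of 4 libraries and DESeq2 did not call it (adjusted p = 0.0981), nor did edgeR without Sham 2 (-0.30).

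At least 1 Gal UMI was found in 85.2%, 64.7%, 100% and 89.5% of Ghrh-gated nuclei. Thinned to 1000 UMIs the shares were 50.8%, 23.5%, 66.7% and 56.1%, against 2.63%, 5.67%, 6.59% and 5.57% in oligodendrocyte-gated nuclei. Read at the gate, 70 of 122, 9 of 34, 9 of 12 and 35 of 57 Ghrh-gated nuclei passed the Gal gate as well. That was 51.9%, 2.38%, 18.4% and 21.3% of the Gal-gated neurons, so most Gal-gated neurons outside DOCA-salt 1 were not Ghrh-gated. The Gal cut is a fixed multiple of the Gal level in oligodendrocyte-gated nuclei of the same library. That level was 23.5, 69.8, 58.9 and 52.7 CPM, so the cut was lowest in DOCA-salt 1. The part of the cut in these overlaps was not tested.

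**Figure D3:**
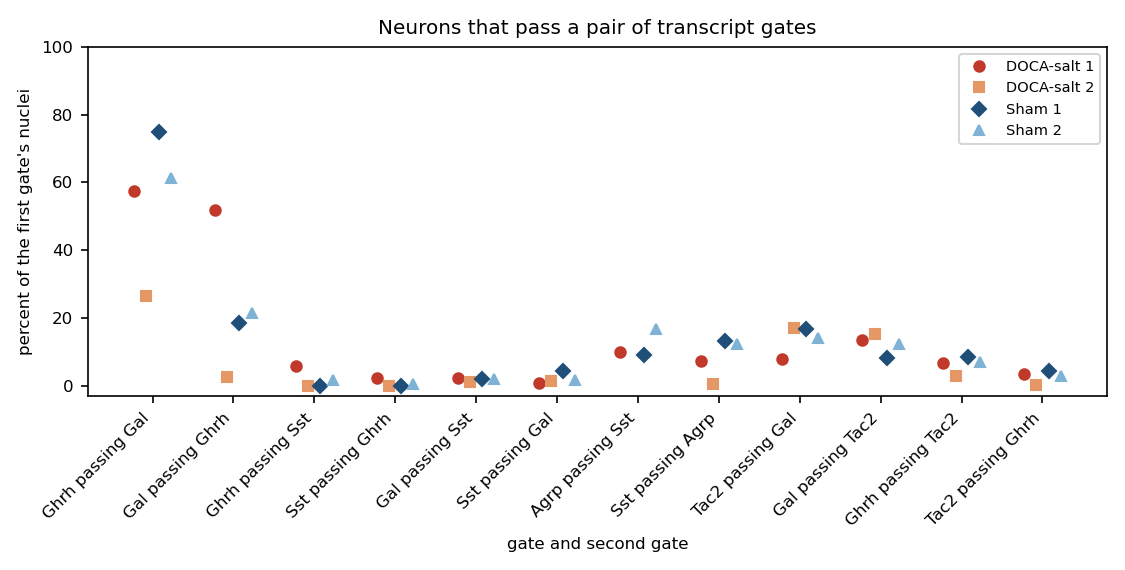
Percent of the nuclei passing one transcript gate that also passed a second, for each of the 4 libraries with at least 10 nuclei in the first gate. Between 26.5% and 75.0% of Ghrh-gated nuclei passed the Gal gate. The Sst gate was passed by 0% to 5.74% of Ghrh-gated and 1.06% to 2.22% of Gal-gated nuclei. Of all neurons 1.80% to 5.53% passed it.

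Seen from the other side, Ghrh had 1730, 146, 589.7 and 638 CPM in Gal-gated neurons and 26.3, 8.54, 15.2 and 21.2 CPM in the other neurons. It was higher in 4 of 4 libraries by 5.16 ± 0.19 (adjusted p = 1.77e-12, edgeR; 3.08% of all genes passed). Part of these nuclei are the Ghrh-gated ones above, so the value adds no independent evidence. Sst was lower in the Gal-gated neurons in 4 of 4 libraries, with a difference of -1.25 ± 0.12 (adjusted p = 3.08e-06, edgeR). Its mean level there, 140 CPM, was under the 164 CPM of oligodendrocyte-gated nuclei.

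Ghr, the growth hormone receptor, was higher in Ghrh-gated neurons, with 166, 101, 110.1 and 98.3 CPM against 56.6, 32.6, 33.3 and 42.9 in the other neurons. Each library was higher, by 2.29 to 3.30 times, and the difference was 1.47 ± 0.14 (adjusted p = 2.20e-24, edgeR). In Agrp-gated neurons Ghr was at 296, 158 and 173 CPM against 52.0, 30.6 and 39.1 in the other neurons. That difference was 2.33 ± 0.11 in 3 of 3 libraries (adjusted p = 1.57e-41), where 11.5% of all genes passed.

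Among nuclei with at least 1000 UMIs, thinned to 1000, 28.6%, 18.2% and 15.9% of Agrp-gated ones held a Ghr UMI. In the same libraries 1.75%, 3.30% and 1.01% of such oligodendrocyte-gated nuclei did. Unthinned, the shares were 55.4%, 72.7% and 66.7%. By mean level, over the classes with at least 10 nuclei in 3 or more libraries, the order for Ghr was Agrp-gated (209 ± 75.9, SD, n = 3), Ghrh-gated (119 ± 31.6, n = 4), Sst-gated (66.8 ± 23.3), Pomc-gated (62.4 ± 36.8), Gal-gated (62.1 ± 39.4) and astrocyte-gated nuclei (57.4 ± 17.4). From the Sst-gated neurons on, the neighbours in this order differed by less than their SD. In neurons as a whole Ghr was at 60.04, 32.9, 34.2 and 44.0 CPM, with overlapping groups and a difference of 0.20 ± 0.28 (adjusted p = 0.849, edgeR).

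**Figure D4:**
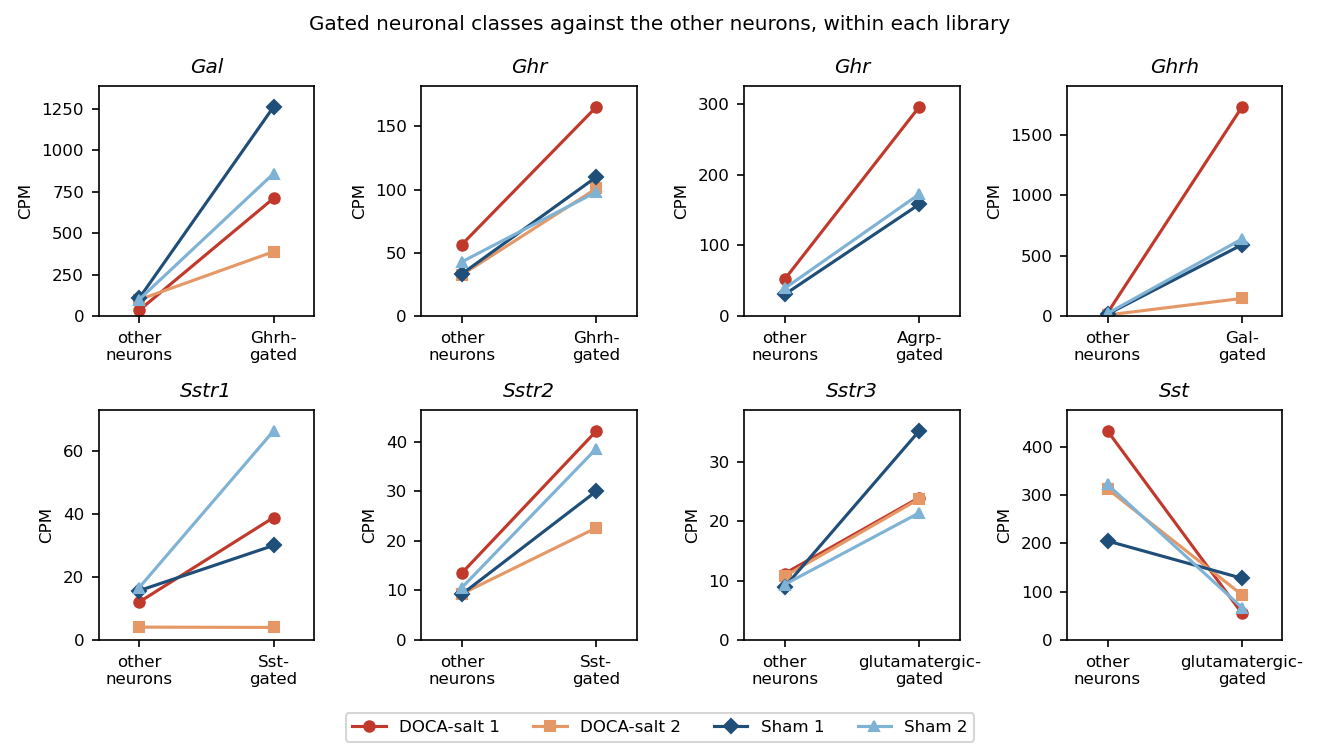
CPM in a gated class and in all other neurons of the same library, joined by a line, for 8 gene and class pairs, with libraries of under 10 nuclei left out. Lines rise in every library for Gal and Ghr in Ghrh-gated, Ghr in Agrp-gated, Ghrh in Gal-gated, Sstr2 in Sst-gated and Sstr3 in glutamatergic-gated neurons. Sstr1 stays flat in DOCA-salt 2, and Sst falls in glutamatergic-gated neurons.

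Gal was also higher in Tac2-gated neurons. It had 135, 290.3, 494 and 317 CPM there against 50.8, 92.1, 110.4 and 104 in the other neurons, higher in 4 of 4 libraries by 1.69 ± 0.09 (adjusted p = 1.94e-09, edgeR; 1.65% of all genes passed). It was lower in glutamatergic-gated neurons, with 12.6, 21.1, 22.0 and 29.9 CPM, below its oligodendrocyte level in each library. The difference from the other neurons was -2.19 ± 0.11 (adjusted p = 6.84e-13, edgeR), where 9.99% of all genes passed. In GABAergic-gated neurons Gal was higher by 0.77 ± 0.06 (adjusted p = 2.26e-05, edgeR), where 6.6% passed.

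In neurons as a whole Gal was at 55.1, 99.4, 119 and 114 CPM. Both DOCA-salt libraries were below both Sham libraries, and the difference of -0.61 ± 0.30 did not pass (adjusted p = 0.6645, edgeR). It was -1.15 without DOCA-salt 2 and -0.22 without DOCA-salt 1, each a fit with 1 DOCA-salt library. The same order held in Ghrh-gated neurons (-0.92 ± 0.28, adjusted p = 0.418) and in Tac2-gated neurons (-0.94 ± 0.38, adjusted p = 0.944). Gal-gated neurons were 2.22%, 3.22%, 3.83% and 3.99% of neurons. The exact two-sided permutation test of these shares gave p = 0.333, the smallest that 4 libraries allow. Median depth was lower in the neurons of both DOCA-salt libraries, and the Gal cut was lowest in DOCA-salt 1, as given with the overlaps above. The part of either in these shares was not tested.

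Galr1 was sparse. Neurons had 3.66, 10.1, 10.5 and 7.46 CPM, with a difference of -0.38 ± 0.50 (adjusted p = 0.844, edgeR). Thinned to 1000 UMIs, 0.265%, 1.08%, 1.098% and 0.684% of neurons held a UMI, against 0%, 0.258%, 2.20% and 0.253% of oligodendrocyte-gated nuclei, where 0, 1, 2 and 1 nuclei held one. Neurons had the higher share in 3 of 4 libraries, and the 2 nuclei of Sham 1 bring the oligodendrocyte mean to 0.677%, near the 0.781% of neurons. Thinned to 2000 UMIs the means were 1.46% and 0.532%. Of the oligodendrocyte-gated nuclei 0 of 41, 0 of 97, 0 of 86 and 4 of 188 held a UMI then. Their mean comes from Sham 2 alone, where their share (2.13%) was above that of neurons (1.42%). Zeros on so few nuclei do not show a lower share than in neurons. The unthinned shares averaged 4.90% and 1.52%. Neurons gated on histaminergic markers had the highest mean level, with 9.75, 34.2, 19.8 and 4.86 CPM from 7, 13, 4 and 2 UMIs. The difference from other neurons was 1.17 ± 0.37 (adjusted p = 0.0238, edgeR; 7.64% of all genes passed), in 3 of 4 libraries, and DESeq2 gave an adjusted p of 0.178. It did not pass without DOCA-salt 1 (1.07, adjusted p = 0.181) or without DOCA-salt 2 (0.76, adjusted p = 0.527, edgeR).

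Over the 9 neuronal classes with at least 10 nuclei in every library, 30 of 69 tests of these genes against the other neurons passed, 14 higher and 16 lower. In the classes so far not set beside a background share, 3.89% of all genes passed in Pomc-gated and 9.5% in Oxt/Avp-gated neurons. In Pomc-gated neurons Ghrh was called higher (1.24 ± 0.15), but its 601.6, 0, 10.2 and 77.3 CPM put it above the other neurons in 2 of 4 libraries, chiefly DOCA-salt 1, and without DOCA-salt 1 the difference was 0.29 (adjusted p = 0.538, edgeR). A like caution holds for Ghrh in Tac2-gated neurons, called higher (1.12 ± 0.17) with 213, 10.5, 74.3 and 127 CPM, which is below the other neurons in DOCA-salt 2. Without Sham 2 it was 0.90 (adjusted p = 0.102). In Oxt/Avp-gated neurons Ghrh was lower in 4 of 4 libraries (-1.56 ± 0.27), while Gal (-0.60 ± 0.13) and Sstr3 (-1.27 ± 0.43) were called lower but were so in 3 and 2 of 4 libraries and did not pass without DOCA-salt 2 (-0.34 and -0.15), nor did Sstr3 without Sham 1 (-1.24). In histaminergic-gated neurons Sst (-1.19 ± 0.11), Ghrh (-1.88 ± 0.24) and Gal (-0.59 ± 0.15) were lower in 4 of 4 libraries, and Gal did not pass without Sham 2 (-0.36). Ghr in Pomc-gated neurons was called higher (0.68 ± 0.17), in 3 of 4 libraries, and did not pass without Sham 2 (0.26). Ghrh in glutamatergic-gated neurons was called lower (-1.96 ± 0.36), in 3 of 4 libraries, and ran from -0.99 without DOCA-salt 1 to -3.27 without DOCA-salt 2. Of the 30 calls 21 had the same direction within every library, and 7 were called under every alternative run: Gal and Ghr in Ghrh-gated, Ghrh in Gal-gated, Sstr2 in Sst-gated, and Sstr3, Sst and Gal in glutamatergic-gated neurons.

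Another 6 classes had at least 10 nuclei in 3 libraries, and their tests on those 3 libraries were added after seeing the data. By edgeR with library as a block, 16 of 48 passed, 4 higher and 12 lower, some of them given above. Gal was lower in Agrp-gated (-0.68 ± 0.14), ventromedial-gated (-1.80 ± 0.18), suprachiasmatic-gated (-0.89 ± 0.21) and Sim1-gated neurons (-0.67 ± 0.16), each in 3 of 3 libraries. Sst was lower in striatal-type neurons (-2.29 ± 0.29), also in 3 of 3. Sstr3 was called lower in suprachiasmatic-gated neurons (-2.62 ± 0.86) on 2, 0 and 0 UMIs, and in Sham 1 and Sham 2 the limit that a count of 0 allows (12.8 and 47.3 CPM) lay above the level of the other neurons. Ghrh was lower in suprachiasmatic-gated neurons in 3 of 3 libraries (-1.76 ± 0.49). In Agrp-gated (-1.14 ± 0.21) and ventromedial-gated neurons (-1.48 ± 0.35) Ghrh was called lower but was so in 2 of 3 libraries, as was Sst in dopaminergic-gated neurons (-0.78 ± 0.15). Mean Ghrh in suprachiasmatic-gated and ventromedial-gated neurons was 9.72 and 13.6 CPM over 3 libraries. Both were under the 22.6 CPM of oligodendrocyte-gated nuclei over 4 libraries. Ghrh was called higher in Sim1-gated neurons (1.37 ± 0.21), with 29.3, 10.9 and 329 CPM, above the other neurons in 2 of 3 libraries, and in Sham 2 a single nucleus held 53 of its 61 UMIs. The shares of all genes that passed were 7.23% in suprachiasmatic-gated, 1.5% in Sim1-gated, 1.17% in dopaminergic-gated and 0.17% in striatal-type neurons.

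Of the other 29 genes of these pathways that were followed, 22 or 23 could be tested in each neuronal class. In Ghrh-gated neurons 6 of 22 rose and 1 fell, where 5.55% of all genes passed. Gsx1, a homeobox gene of developing arcuate neurons, had 36.2, 24.2, 48.9 and 45.6 CPM there against 5.55, 1.92, 1.94 and 4.48 in all neurons, with a difference of 3.58 ± 0.32 (adjusted p = 9.92e-26, edgeR). Ghsr, the ghrelin receptor, had 45.9, 12.1, 48.9 and 36.9 CPM against 9.68, 3.58, 4.36 and 5.40, a difference of 2.69 ± 0.29 (adjusted p = 1.63e-17). Sstr5, another somatostatin receptor, was higher by 2.14 ± 0.46 (adjusted p = 2.13e-04), with 13.3, 0, 18.3 and 15.8 CPM. Socs2, Igf1r and Gnai2 also rose, and Pcsk2, a prohormone convertase, fell.

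In Agrp-gated neurons 5 of 22 rose and 2 fell, where 11.5% of all genes passed. Those that rose were Ghsr (2.35 ± 0.27), the G protein subunit gene Gnai2 (0.29 ± 0.08), Socs2 (1.80 ± 0.13), Socs3 (2.13 ± 0.32) and Cish (1.56 ± 0.29), of which the last 3 encode feedback inhibitors of cytokine receptor signalling. Socs2 had 145, 85.2 and 109 CPM in the Agrp-gated neurons of DOCA-salt 1, Sham 1 and Sham 2, against 46.5, 28.3 and 31.2 in all neurons. In Sst-gated neurons 2 of 22 rose, the inhibitory G protein subunit genes Gnai1 (0.49 ± 0.07) and Gnai2 (0.22 ± 0.06), where 3.06% of all genes passed. In the other classes with 4 libraries 23 were tested. The numbers higher and lower were 3 and 0 in Pomc-gated, 2 and 1 in Tac2-gated, 5 and 2 in Oxt/Avp-gated, 2 and 3 in histaminergic-gated, 1 and 3 in GABAergic-gated, 3 and 3 in glutamatergic-gated and 2 and 1 in Gal-gated neurons.

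In the 6 non-neuronal classes, neurons were higher than the class in 22 of 48 tests and lower in 1. The background was wide, since 17.6% of all genes passed for microglia-gated and 41.8% for astrocyte-gated nuclei, with 38.5%, 21.8%, 25.7% and 21.7% for the oligodendrocyte, oligodendrocyte precursor, vascular and ventricular classes. The peptide genes were present in every such class. Sst in oligodendrocyte-gated nuclei was at 175, 209.5, 137 and 132 CPM. A list of neuronal markers, which these cells should lack, was summed at 26.9% to 48.9% of its neuronal level in the same classes. The gates used this same list, with non-neuronal nuclei under 0.7 and neurons at 0.8 or more times the library mean. Its share is therefore held down by the gates and is not a free measure of background. The share of the peptide counts that is free or neuronal RNA was not tested.

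**Figure D5:**
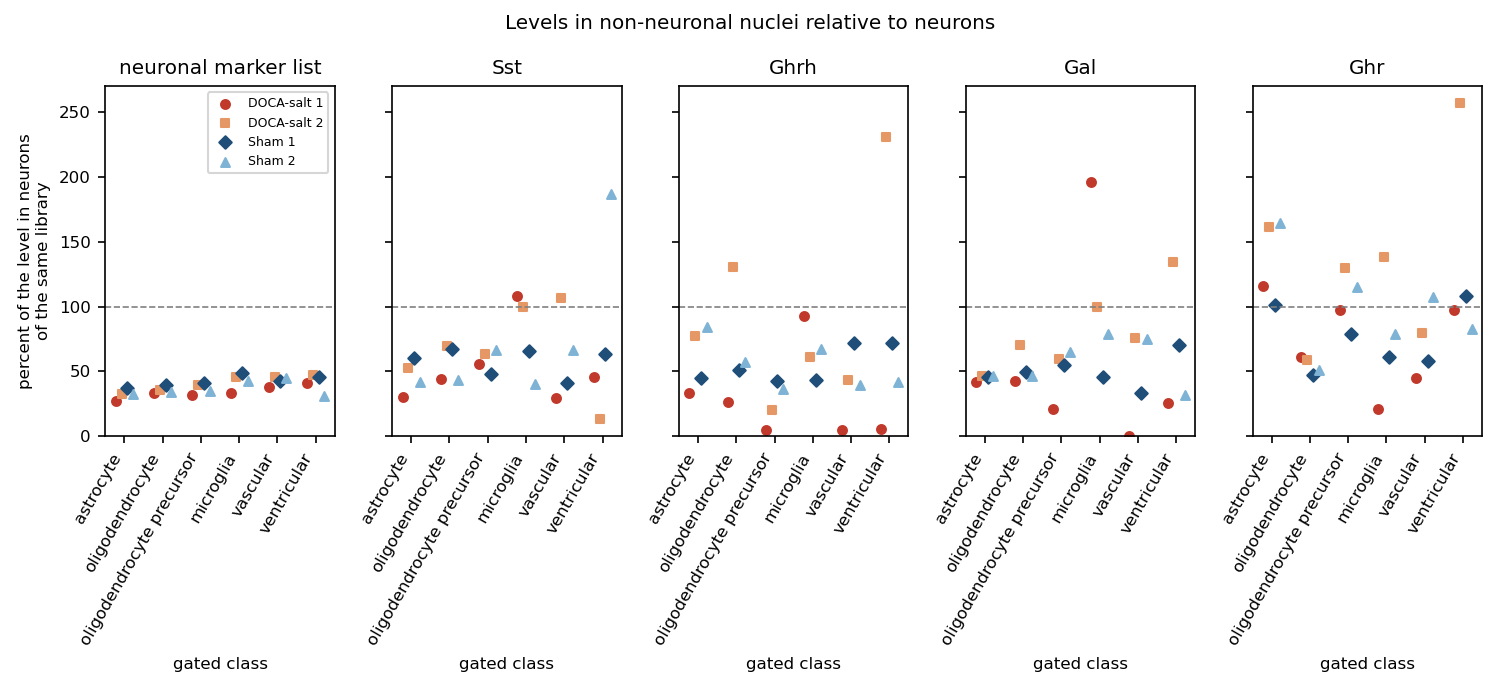
Level in 6 non-neuronal classes as a percent of the level in neurons of the same library, for a list of neuronal markers and for Sst, Ghrh, Gal and Ghr. The neuronal marker list, which the gates also used, lies between 26.9% and 48.9%. Ghr in astrocyte-gated nuclei lies at or above the dashed line (100%) in all 4 libraries.

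The 1 passing test in which neurons were the lower side was that of Ghr against astrocytes. Astrocyte-gated nuclei had 69.4, 53.1, 34.6 and 72.5 CPM against 60.04, 32.9, 34.2 and 44.0 in neurons. The level was higher in 4 of 4 libraries, barely so in Sham 1, and neurons were lower by a difference of -0.65 ± 0.14 (adjusted p = 6.47e-05, edgeR). Oligodendrocyte-gated nuclei had 36.6, 19.4, 16.1 and 22.5 CPM, below neurons in 4 of 4 libraries (adjusted p = 0.002025, edgeR).

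Sstr1 was also above its neuronal level in oligodendrocyte precursor-gated nuclei in 4 of 4 libraries, with 19.4, 5.35, 43.3 and 27.7 CPM from 5, 2, 8 and 6 UMIs. Neurons were lower by a difference of -0.76 ± 0.39, which did not pass (adjusted p = 0.157, edgeR). The neuronal marker list, which the gates also used, was at 31.4% to 41.2% of its neuronal level in these nuclei. The part of neuronal RNA in the Sstr1 level was not tested.

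Between treatments, 85 tests of these genes were made over the whole libraries, the neurons and 15 classes. By edgeR's quasi-likelihood test with Benjamini-Hochberg adjustment 0 passed, and DESeq2 also called 0. An unadjusted p under 0.05 was seen in 13 by edgeR, and the share of all genes under it is not given here. Some tests passed without DOCA-salt 1 or without DOCA-salt 2. Such fits hold 1 DOCA-salt library and no spread between pools of that group. In the main fits 0.0% of all genes passed in whole libraries and neurons and at most 0.206% in any class. The shares of all genes that passed were 0.0171% for oligodendrocyte precursors, 0.018% for microglia, 0.0138% for vascular and 0.0151% for ventricular nuclei. For neuronal classes they were 0.00916% (Tac2), 0.0386% (Oxt/Avp), 0.0264% (histaminergic), 0.026% (glutamatergic), 0.118% (Ghrh), 0.0267% (Sst) and 0.123% (Gal), and 0.0% for Pomc and GABAergic neurons. The 29 pathway genes gave 0 calls. With 2 libraries a group, and DOCA-salt libraries that differed in the neurons sampled, this does not show that levels were alike. In bulk sums such as whole libraries, fewer cells of a type and less RNA per cell cannot be told apart.

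Over 18 classes (those gated on Ghrh, Sst or Gal left out) the genes whose log2 mean level was most correlated with that of the 7 members given here were, for Gal, Pnoc (Pearson's r = 0.85), Esr1 (0.84) and Ecel1 (0.82), for Ghrh, Gm48610, Smim19 and Esr1 (0.77, 0.77 and 0.76), for Sst, Mia2, Gast and Mbtps1 (0.82, 0.82 and 0.76), and for Ghr, Gm19276, Acvr1c and Olfr920 (0.81, 0.79 and 0.78). For the receptors they were Cryl1, Gm17210 and Trim45 for Sstr1 (0.81, 0.78 and 0.75), Grip2, Cryzl1 and Sar1a for Sstr2 (0.84, 0.83 and 0.83) and Lemd1, Glra3 and Galnt16 for Sstr3 (0.83, 0.82 and 0.81). The classes share libraries and overlap in nuclei, and the correlations are descriptions only.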

How the data were processed

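Single-nucleus libraries (10x 3′ chemistry) were made from pooled arcuate punches, and the authors deposited whole UMI counts per gene and barcode from Cell Ranger 3.0.1 on mm10. These 4 count tables were read as deposited. Nuclei with over 200 and under 7000 genes, under 25000 UMIs and under 15% mitochondrial UMIs were kept, the limits of the study. Non-neuronal classes needed 3 markers of a list at 3 times the library mean and the neuronal list under 0.7 times its mean. Neurons needed 3 markers of the neuronal list at 0.8 times the mean, with no non-neuronal list at 4 times. Transcript gates needed 3 UMIs at 10 times the oligodendrocyte level of the same library. Gate thresholds were set after looking at the gate markers, and overlapping lists were merged into vascular and ventricular classes then. Nuclei passing several non-neuronal lists were left out as possible doublets; no doublet caller was run. Gates of neurons overlap, and 1 listed marker (Cfap299) was not found.

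Counts were summed per library and class and tested in edgeR 4.0.16 (R 4.3.3; TMM, filterByExpr, quasi-likelihood test, Benjamini-Hochberg over all genes, 0.05), with library as a block between classes; SEs come from the F statistic and pool the spread over genes. DESeq2 1.42.0 was an alternative. Classes with 10 nuclei in 3 libraries only were fitted on those 3, a choice made after seeing the data. The fits were also run on simulated counts with the same spread for every gene and no library effect. That run cannot show how the fits behave under the spread between libraries seen here. Between treatments p-values measure spread between pools, and between classes they measure how the class difference varies from library to library. In both, spread is pooled over genes and can be narrower than a gene's own spread between libraries. Thinning drew 1000 or 2000 UMIs from each nucleus that held as many, and shallower nuclei were left out of the thinned shares. At 1000 UMIs this kept 50.7%, 43.5%, 100% and 82.3% of oligodendrocyte-gated nuclei. Of neurons it kept 93.3%, 93.1%, 99.8% and 96.2%. Intervals cover counting error only. The 9 genes were tested in each class they could be, the pathway list is given as counts with examples, and the 3 most alike genes (at least 100 UMIs) by correlation of log2(CPM + 1). The genes and lists were chosen with earlier results of these data known. The genes most like Galr1 are not reported here.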

Additional observations from a re-analysis of the deposited data

Results flagged for a closer look

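The treatment difference of Sst was called different between neurons and 2 non-neuronal classes. The call came from an interaction term in edgeR's quasi-likelihood test with Benjamini-Hochberg adjustment over all genes. It was fitted on all 4 libraries only. Of 48 such tests over 6 classes, with Sstr4 not among the genes tested, these 2 passed. In the other 4 classes the Sst value lay between -0.25 and 0.19. Of all genes, 9 of 14782 passed for ventricular-gated and 20 of 14549 for microglia-gated nuclei. Against ventricular-gated nuclei (tanycytes and ependymal cells), the DOCA-salt over Sham difference in neurons was higher by 2.10 on the log2 scale (adjusted p = 5.35e-06). Ventricular-gated nuclei had 180 and 40.1 CPM with DOCA-salt and 129.6 and 575 CPM in Sham (libraries 1 and 2 of each), from 77, 9, 14 and 189 UMIs, and 1 nucleus held 38.6% of the UMIs in Sham 2 and 35.1% in DOCA-salt 1. The groups overlapped there, with DOCA-salt 1 above Sham 1, and libraries of the same group lay far apart. Against microglia-gated nuclei the difference in neurons was lower, at -1.03 (adjusted p = 0.01414). Microglia-gated nuclei had 427, 298, 133.5 and 125 CPM, and 1 nucleus held 41.8% and 47.2% of the UMIs in the DOCA-salt libraries, against 12.5% and 8.33% in the Sham libraries. In these classes the neuronal markers, which the gates also used, summed to between 31.2% and 48.9% of their level in neurons. The part of single neuron-like nuclei in either difference was not tested.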

How the results depend on the processing

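Of the calls between classes, 7 of 30 in neurons and 4 of 23 against non-neuronal classes were made under every alternative run. Counting all calls, whether made in the main fit or not, DESeq2 gave 19 and 14, and edgeR without library as a block 7 and 7. Leaving out 1 library gave 27 to 32 and 14 to 20 calls. For DOCA-salt against Sham, 0 genes passed in neurons and in whole libraries, against 69 and 109 by DESeq2, 276 and 142 without the filter on low counts, and 1 to 2085 and 1 to 771 with 1 library left out, most without DOCA-salt 1. Of the tests of the 9 genes, 5 passed without the filter (Sstr1 in neurons and whole libraries among them) and 1 to 17 with 1 library left out. Differences in gated shares with 1 library left out ran from -0.874 to 0.846 percentage points for Ghrh, -0.574 to 2.47 for Sst and -1.69 to -0.697 for Gal. Same-numbered pools were not shown to be paired (r = -0.31 in neurons). The replicate block called 5 genes in neurons, 0 in whole libraries and 0 of the member tests, and the crossed replicate block, chosen after seeing the data, 60, 58 and 3. The treatment difference of Ghrh in neurons became -0.38 under the replicate block, -0.35 under the crossed one, -0.095 without upper limits on nuclei, and between -1.73 and 0.92 with 1 library left out (-1.73 without DOCA-salt 1, -0.04 without Sham 1). With 1 library left out, Sstr2 ran from -0.16 to 0.40, Ghr from -0.25 to 0.54 and Galr1 from -1.35 to 0.19, each changing sign without DOCA-salt 1. Ghrh in Pomc-gated neurons became -0.26 by DESeq2. The cause was not tested in any of these. The stricter gate left 14 of 17 treatment fits.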
